A study of Homo sapiens with 66 samples.

Results

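The mitochondrially encoded genes are the 37 genes of the mitochondrial chromosome, with symbols that start with MT-, out of 57992 genes analysed. The rule that takes them is their position, and all 37 were kept whatever their level. They are 13 messenger RNAs, 2 ribosomal RNAs and 22 transfer RNAs. RNA was sequenced from 11 human acute myeloid leukemia (AML) cell lines, F36P, HL60, KASUMI1, MOLM13, MONOMAC6, MV411, NB4, NOMO1, OCIAML2, OCIAML3 and THP1, which are established lines grown from patients' leukemia cells. Each line was left untreated or was exposed for 24 hours to etoposide, a topoisomerase II poison, at its own half-maximal inhibitory concentration. The dose therefore differed between lines, and the lines are not compared at a matched dose. Whether the untreated cells received the drug's solvent is not stated for the sequenced samples. Growth medium, serum content and supplements also differed between some lines. There were 3 libraries per group and 66 libraries in all, each from 3 pooled wells. The study describes its replicates in general as biological, the labels do not say how the libraries of a group were grown, and the p-values measure the spread between these libraries.

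Libraries held 17997404 to 24101670 reads on genes, of which 696573 to 1528836 were on mitochondrial genes, so counting error is small for every messenger and ribosomal RNA and large for most transfer RNAs. The leukocyte genes PTPRC, SPI1 and CD33 were at or above 1 CPM, a read count scaled to the size of the library, in all 11 untreated lines and MPO was in 10, whereas the epithelial keratin KRT19 had a mean of 0 CPM in every line and the fibroblast collagen COL1A2 did not reach 1 CPM in any. The epithelial gene EPCAM was at 81.9 CPM in KASUMI1. The study discarded the etoposide libraries of OCIAML2 after quality control. In that line only 3 of 13604 genes tested (0.0221%) passed an adjusted p of 0.05 between etoposide and untreated, with 456 at an unadjusted p below 0.05 and 16 called by DESeq2. Its treated libraries are therefore given apart, and statements over the treated lines cover the other 10.

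The mitochondrial chromosome is a small circle transcribed from both strands into long precursors. The heavy-strand precursor carries both ribosomal RNAs, 12 messenger RNAs and 14 transfer RNAs, and the light-strand precursor carries MT-ND6 and 8 transfer RNAs. Transfer RNAs lie between most of the other genes and are cut out, which releases the messenger and ribosomal RNAs. The proteins made are core subunits of respiratory complexes I, III, IV and V, and the ribosomal RNAs build the mitochondrial ribosome. RNA polymerase, processing enzymes, ribosomal proteins and the remaining respiratory subunits come from nuclear genes.

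Libraries were made with a kit that selects RNA by its poly(A) tail. Mitochondrial messenger RNAs mostly carry short tails, the ribosomal RNAs carry very short ones and MT-ND6 carries little or none. The level of an RNA and the share of it captured cannot be told apart here, nor can less RNA per cell be told apart from fewer cells of a kind. Where neighbouring genes share bases on 1 strand, a read that touches both is not counted for either. The messenger RNA pairs MT-ATP8 with MT-ATP6 and MT-ND4L with MT-ND4 are shown because they share the most bases, while MT-ATP6 and MT-CO3 share 1. Sequences are from the plus strand of chromosome M of GRCh38, and capitals mark the shared bases, 46 at chrM:8512-8587 and 7 at chrM:10745-10781.
MT-ATP8 to MT-ATP6: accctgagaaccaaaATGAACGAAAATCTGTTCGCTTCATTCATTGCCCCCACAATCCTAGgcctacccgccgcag
MT-ND4L to MT-ND4: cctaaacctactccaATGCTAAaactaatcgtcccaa
The first stretch of capitals is 46 of the 207 bases of MT-ATP8, and both begin with the start codon of the downstream gene. MT-ND5 and MT-ND6, in contrast, are coded on opposite strands and meet end to end without sharing a base. Their junction, chrM:14119-14178 on the plus strand, is shown because MT-ND6 is the member whose behaviour differed most from its neighbours, and capitals mark its bases.
MT-ND5 end to MT-ND6 end: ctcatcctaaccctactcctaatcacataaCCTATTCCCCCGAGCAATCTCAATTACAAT
Reads were assigned by strand as far as the counts show. Reads were found on 463 of 707 genes nested completely within 1 exon of an opposite-strand gene, and 87 of them had at least 100. Counting without strand would have discarded these reads as ambiguous. MT-CO1 had 8612 reads per base over the 66 libraries, and MT-TS1, which lies directly beside its end on the other strand, had 11.2. These genes share no base, and counting without strand would also drop reads that touch both, so this pair cannot show strand assignment.

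In untreated cells the 37 genes took 3.49 to 6.58% of the reads on genes, with a median library of 5.07%. HL60 was highest (6.54% ± 0.0336, SD, n = 3), followed by KASUMI1 (6.35% ± 0.0823), NOMO1 (5.75% ± 0.483), F36P (5.52% ± 0.335), MOLM13 (5.47% ± 0.270), NB4 (4.97% ± 0.837), OCIAML3 (4.93% ± 0.133), MV411 (4.33% ± 0.125), OCIAML2 (3.89% ± 0.147), THP1 (3.75% ± 0.139) and MONOMAC6 (3.53% ± 0.0413). The libraries of neighbouring lines in this order overlapped from NOMO1 down to OCIAML3 and between OCIAML2 and THP1. HL60 and KASUMI1 lay above all other lines with every library, and MONOMAC6 lay below all others. Transfer RNAs made up 0.000667 to 0.0201% of a library, so the shares are shares of messenger and ribosomal RNA.

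Per kilobase of gene that can be counted alone, cytochrome oxidase messenger RNAs had the highest counts. The mean untreated level over the 11 lines was 9905 CPM per kb for MT-CO3, 7757 for MT-CO2 and 6076 for MT-CO1, the 3 mitochondrial subunits of complex IV. MT-ND4, a complex I subunit, followed at 5443 CPM per kb, and MT-ATP6, a subunit of the ATP synthase, at 4922. MT-CO3 ranked first of the 13 in 9 lines and MT-CO2 in the other two. The middle of the order held MT-ND4L (2669 CPM per kb), MT-ND2 (2581), MT-ATP8 (2268), MT-ND1 (2201), MT-CYB, the complex III subunit (2037), and MT-ND3 (1951). MT-ND5 (1203 CPM per kb) and MT-ND6 (412 CPM per kb) were at the low end, with MT-ND6 last in 10 lines and MT-ND5 last in F36P. The 12 messenger RNAs of the heavy strand come from 1 precursor, and their mean counted levels per kilobase still differed from 9905 to 1203 CPM. Reads that touch more than 1 gene, or that were placed on nuclear copies, are not in these values. How far the order is one of RNA level was therefore not tested. By untreated line, MT-ATP8 had 0.337 to 0.565 of the MT-ATP6 value per countable base, and MT-ND4L 0.402 to 0.635 of the MT-ND4 value.

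All 13 messenger RNAs and both ribosomal RNAs differed between the untreated lines (edgeR quasi-likelihood F test, adjusted p from 3.58e-22 for MT-ND6 to 5.38e-08 for MT-ATP8). Across 18130 genes tested, 99.4% differed between the lines, so this count says nothing particular about the mitochondrial genes. The sizes of the differences were unequal. Untreated levels from here to the end of the transfer RNAs are CPM on a scale common to the 33 untreated libraries.

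MT-RNR2, the large ribosomal RNA, was measured at 8030, 7763 and 8189 CPM in F36P. In MONOMAC6 it was at 1501, 1475 and 1578 CPM, and in OCIAML2, the next lowest line, at 3105, 2974 and 3617 CPM. The means of the highest and the lowest line differed 5.27-fold, and the libraries of 7 of the 10 neighbouring pairs of lines in its order overlapped. MT-RNR1, the small ribosomal RNA, followed the same extremes, from 722 CPM ± 52.3 in F36P to 103 CPM ± 8.99 in MONOMAC6 (SD, n = 3), or 7.0-fold. MONOMAC6 was thus the lowest line for both ribosomal RNAs, with no library reaching any library of another line.

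MT-ND6, a complex I subunit and the only messenger RNA of the light strand, had the widest range of the 13. Its libraries were at 636, 541 and 469 CPM in F36P. KASUMI1 was second at 368, 396 and 333 CPM, and MV411 was lowest at 91.6, 73.1 and 62.7 CPM. The F36P libraries did not overlap those of any other line, and the means of F36P and MV411 differed 7.24-fold. By contrast MT-CO1 spanned 1.91-fold from HL60 (11878 CPM) to THP1 (6231 CPM), and MT-ND4 spanned 1.96-fold from KASUMI1 (9983 CPM) to OCIAML2 (5091 CPM).

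MT-ND1 set a pair of lines apart. It was at 927, 870 and 931 CPM in MONOMAC6. OCIAML2 had 881, 825 and 1002 CPM. The lowest library of the other 9 lines was at 1653 CPM, in NOMO1, and the highest line, F36P, had a mean of 3345 CPM ± 370 (SD, n = 3). MT-ND2, its neighbour on the same strand, was lowest in THP1 at 1371, 1331 and 1334 CPM. MT-CYB was lowest in NB4 (1279 CPM) and highest in KASUMI1 (3557 CPM). MT-CO3 was highest in KASUMI1 (13640 CPM) and second in HL60 (10303 CPM). The KASUMI1 value was also the highest mean of any mitochondrial messenger RNA in any untreated line.

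**Figure D1:**
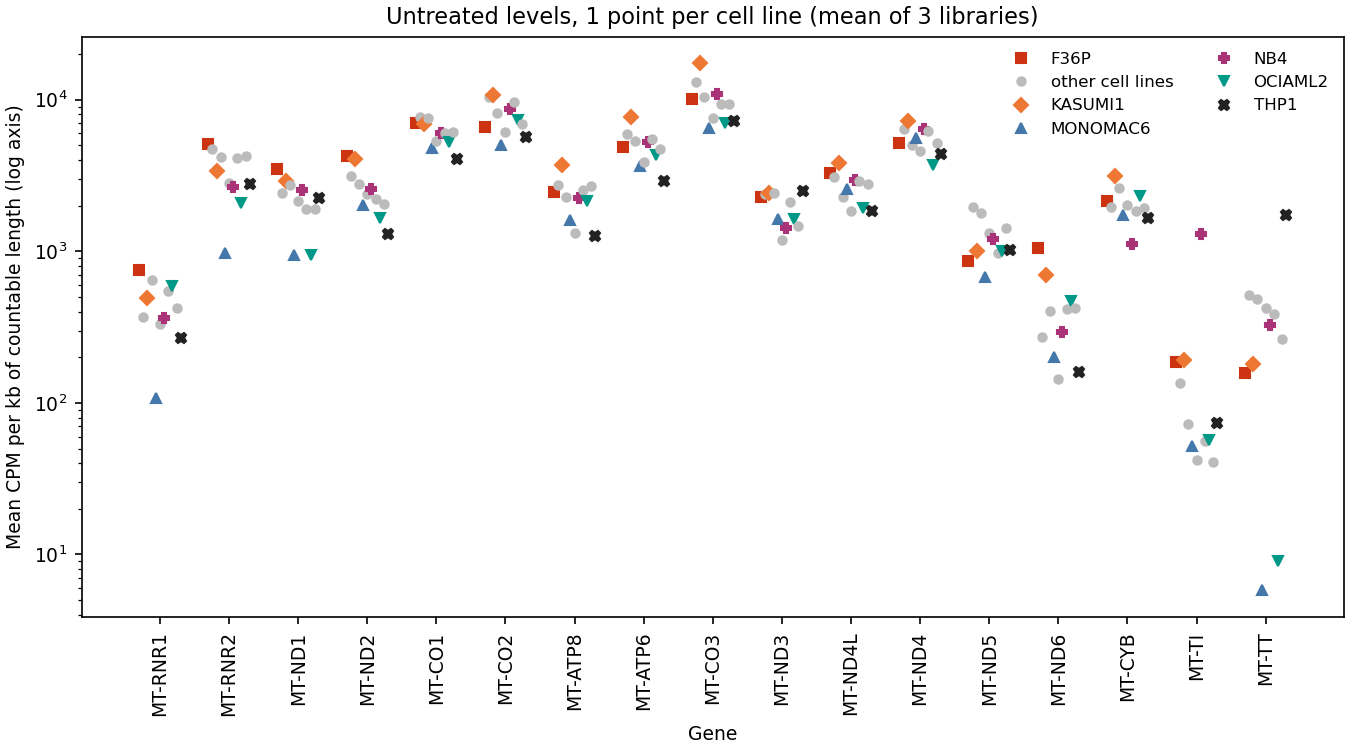
Mean untreated level of the 13 messenger RNAs, 2 ribosomal RNAs and MT-TI and MT-TT, in CPM per kb of countable length on a log axis, 1 point per cell line (mean of 3 libraries), with 6 lines in colour. MONOMAC6 lies lowest for both ribosomal RNAs, F36P highest for MT-ND6, NB4 far above the others for MT-TI, and MONOMAC6 and OCIAML2 far below for MT-TT.

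Nuclear copies of mitochondrial genes are so alike in sequence that reads can be placed on either. The annotation lists 399 of them, 125 had a read, and 5 held 99.6% of their reads, together 0.0466 to 0.147% of a library. MTATP6P1 (chromosome 1, 633696 to 634376, GRCh38) matched the mitochondrial genome at 98.5% of 681 aligned bases, over all of MT-ATP6. Its share of the counted reads on itself and MT-ATP6 was 13.3 to 14.2% in all 11 untreated lines, and so was alike across them. How many reads fit both sequences equally well was not measured. MTND2P28 (chromosome 1, 629640 to 630683) did not have a like share in all untreated lines. It held 19.5% ± 0.132 of its reads and those of MT-ND2 in THP1 and 13.9% ± 0.230 in MONOMAC6 (SD, n = 3), against 2.59 to 3.71% in the other 9 lines. With both genes added, THP1 was still the lowest line at 1671 CPM ± 26.7. In F36P, 8.37% of the reads on MTND1P23 and MT-ND1 and 3.63% of those on MTND4P12 and MT-ND4 were on the copy, against at most 0.0303 and 0.00866% in the other 10 lines.

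Transfer RNAs are shorter than most sequenced fragments and untailed when mature, and reads that also touch a neighbouring gene are not in their counts. Whether their counts follow the space beside them was not tested. No read was counted on MT-TN, MT-TK, MT-TG, MT-TR or MT-TL2 in any of the 66 libraries. In counting terms alone, 0 reads over the 3 libraries of a group leave room for a level of at most 0.0426 to 0.0528 CPM. A further 5 (MT-TH, MT-TC, MT-TS2, MT-TV and MT-TY) had at most 60 reads over the 66 libraries, and 12 had more than 100. The mean untreated level was at least 1 CPM for 6, MT-TT (26.9 CPM), MT-TI (13.9), MT-TP (2.24), MT-TQ (2.01), MT-TW (1.51) and MT-TE (1.36).

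The isoleucine transfer RNA MT-TI (chrM:4263-4331) and the threonine transfer RNA MT-TT (chrM:15888-15953), both on the plus strand and each next to the end of a messenger RNA, are shown because single lines stood far apart in them. Capitals mark the anticodon.
MT-TI: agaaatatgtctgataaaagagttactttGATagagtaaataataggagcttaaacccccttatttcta
MT-TT: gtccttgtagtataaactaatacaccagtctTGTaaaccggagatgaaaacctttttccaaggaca
MT-TI was at 82.9, 86.8 and 101 CPM in untreated NB4. The next highest line, KASUMI1, had 14.4, 13.7 and 11.3 CPM, and the lowest, OCIAML3, a mean of 2.83 CPM ± 0.336 (SD, n = 3). MT-ND1, which ends where MT-TI starts, was not highest in NB4, where it ranked 4 of 11 lines (2437 CPM ± 384). MT-TT was at 88.9, 149 and 108 CPM in THP1. HL60 was second at 33.8 CPM ± 2.88. MONOMAC6 and OCIAML2 had 0.382 CPM ± 0.120 and 0.598 CPM ± 0.229, and the other 9 lines lay at 10.3 CPM or more. The ratio of the highest to the lowest line was 301-fold, against 2.78-fold for MT-CYB, which ends where MT-TT starts. Whether the bases of MT-TI or MT-TT differ between the lines was not tested.

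After etoposide the 37 genes took a larger share of the library in most lines. Over the 10 lines the mean share was 5.11% ± 1.02 untreated and 5.95% ± 1.07 with etoposide (SD over lines), and the mean difference was 0.836 percentage points ± 0.560. The mean was higher after etoposide in 9 of 10 lines. In 7 of them, F36P, KASUMI1, MOLM13, MONOMAC6, MV411, OCIAML3 and THP1, all 3 etoposide libraries lay above all 3 untreated ones. MOLM13 had the largest difference, from 5.47% ± 0.270 to 7.20% ± 0.203, and HL60 (6.54 to 6.47%) and NOMO1 (5.75 to 5.77%) the smallest. The NB4 groups overlapped, with untreated libraries spread from 4.10 to 5.77%. OCIAML2 was at 3.89% ± 0.147 and 4.01% ± 0.345. No test was run on a sum over the genes.

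The ribosomal RNAs supplied a disproportionate part of the gain. Their share rose from a mean of 0.589 to 0.995% of the library, with a higher mean in all 10 lines and no overlap of the groups in 9 (HL60 overlapped). The messenger RNAs went from 4.52 to 4.95%, a difference of 0.430 points ± 0.596, with a higher mean in 8 lines and no overlap in 5. Of the mitochondrial reads, 11.5% were ribosomal in untreated and 16.7% in etoposide-treated cells, and ribosomal RNA made up 48.5% of the mean gain. In NOMO1 the total stayed near level while the messenger RNAs went from 4.98 to 4.2% and the ribosomal RNAs from 0.764 to 1.57%.

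**Figure D2:**
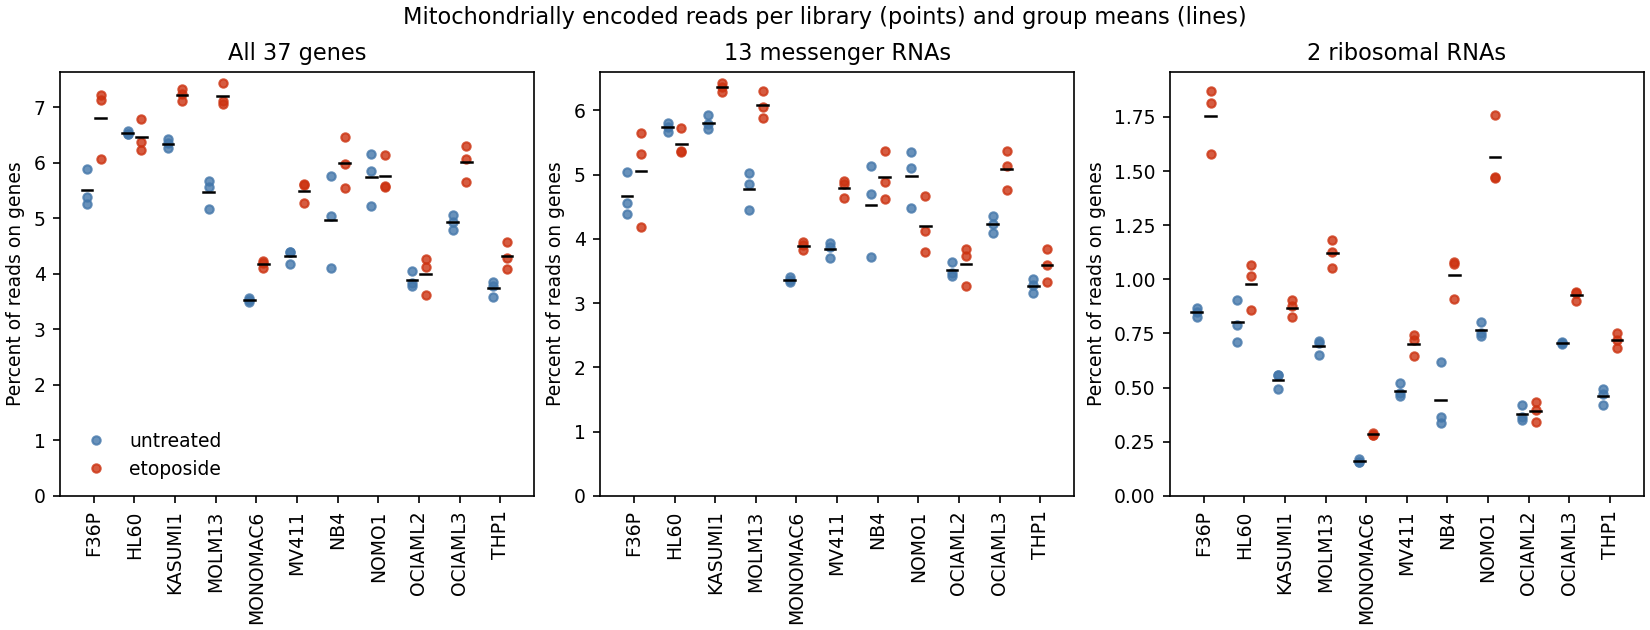
Percent of reads on genes that fell on all 37 genes, the 13 messenger RNAs and the 2 ribosomal RNAs, by cell line, 1 point per library and a line at the mean of each group of 3. The ribosomal share (right) is higher in every etoposide library than in every untreated one in 9 of the 10 lines compared, whereas the messenger share (middle) overlaps in 5.

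Tested gene by gene, the ribosomal RNAs rose and most messenger RNAs moved little on average. Over the 10 lines MT-RNR2 rose by 0.66 ± 0.036 on the log2 scale (SE, adjusted p = 3.80e-23) and MT-RNR1 by 0.57 ± 0.049 (adjusted p = 1.96e-15), both edgeR quasi-likelihood tests adjusted over 19974 genes. Of all genes tested, 31.7% were called higher and 24.1% lower, and the median gene changed by 0.16. Of the 13 messenger RNAs, 4 were called higher by small amounts, MT-ND3 (0.18 ± 0.039), MT-CYB (0.15 ± 0.035), MT-CO1 (0.08 ± 0.025) and MT-CO3 (0.07 ± 0.029). Only MT-ND6 was called lower, at -0.40 ± 0.044 (adjusted p = 2.32e-11). The other 8 had fitted changes between -0.06 (MT-ND5) and 0.05 (MT-ND1). With library sizes alone as the scale, in place of factors estimated over all genes, 9 messenger RNAs were called higher and MT-ND6 was still the one called lower.

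Within single lines, 16 of the 20 pairs of a line and a ribosomal RNA were called higher and none lower. The background in the fits by line ran from 16.1% of genes called higher in THP1 and 17.5% in HL60 to 35% in F36P. It was 31.5% in KASUMI1, 28.1% in MOLM13, 31.8% in MONOMAC6, 33.5% in MV411, 31% in NB4, 28.8% in NOMO1 and 22.4% in OCIAML3. MT-RNR2 was called higher in 9 lines and MT-RNR1 in 7. The levels that follow are CPM on a scale common to the 6 libraries of a line.

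In F36P MT-RNR2 was at 8115, 8292 and 8971 CPM untreated and at 15915, 13870 and 15648 CPM after etoposide, a log2 fold change of 0.84 ± 0.104 (SE, adjusted p = 7.92e-05). In NOMO1 it went from 6934, 7637 and 7076 CPM to 13346, 15947 and 13701 CPM (0.99 ± 0.0913, adjusted p = 4.11e-06). In NB4 it went from 3331, 3590 and 6170 CPM to 9384, 7811 and 9344 CPM (1.02 ± 0.173, adjusted p = 0.000124). Untreated library 3 of NB4 was high for both ribosomal RNAs, and without it the NB4 value was 1.34. MONOMAC6, the line with the least ribosomal RNA, went from 1560, 1535 and 1641 CPM to 2641, 2502 and 2524 CPM (0.70 ± 0.0387, adjusted p = 3.73e-08). MOLM13 went from 5997, 6436 and 6393 CPM to 10695, 9538 and 10464 CPM (0.71 ± 0.0611, adjusted p = 9.15e-06). The groups did not overlap in any of these 5 lines. The MT-RNR2 change was smaller in THP1 (0.57 ± 0.115), KASUMI1 (0.53 ± 0.0864), MV411 (0.43 ± 0.0531) and OCIAML3 (0.39 ± 0.0535), and its groups did not overlap in these 4 lines either. HL60 was the exception, with 7121, 8886 and 7763 CPM untreated, 9644, 7919 and 9108 CPM after etoposide and an adjusted p of 0.206. In OCIAML2 MT-RNR2 was at 3096, 2981 and 3631 CPM, and at 3391, 2914 and 3733 CPM in the discarded etoposide libraries.

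MT-RNR1 did not always move with MT-RNR2. In HL60 it went from 312, 429 and 384 CPM to 550, 462 and 671 CPM and was called higher (0.58 ± 0.135, adjusted p = 0.00503). In F36P it went from 762, 801 and 725 CPM to 922, 616 and 1405 CPM, so its etoposide libraries spread on both sides of the untreated ones (0.36 ± 0.236, adjusted p = 0.211). The count of ribosomal RNAs called higher in F36P was 1 with all libraries and 2 without etoposide library 2, the one at 616 CPM. MV411 (0.09 ± 0.0588, adjusted p = 0.176) and OCIAML3 (0.14 ± 0.0579, adjusted p = 0.0800) were not called. In the other 6 lines MT-RNR1 was higher by 0.41 (KASUMI1) to 0.86 (NB4) on the log2 scale.

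MT-ND6 was called lower in 4 lines, where 25% (F36P), 28.6% (KASUMI1), 28.7% (NB4) and 23.9% (NOMO1) of all genes were. In F36P, where it had been highest, it fell from 643, 578 and 513 CPM to 220, 229 and 262 CPM (-1.29 ± 0.122, adjusted p = 1.67e-05). In NB4 it fell from 188, 156 and 141 CPM to 86.1, 85.4 and 76.9 CPM (-0.97 ± 0.105, adjusted p = 1.60e-06). In NOMO1 it fell from 236, 244 and 254 CPM to 145, 101 and 135 CPM (-0.95 ± 0.116, adjusted p = 3.50e-05). KASUMI1 went from 368, 397 and 330 CPM to 227, 231 and 205 CPM (-0.72 ± 0.0903, adjusted p = 9.79e-05). The groups did not overlap in these 4 lines. The fitted change in the other lines was smaller, -0.23 in HL60, -0.19 in MOLM13, -0.15 in MV411, -0.08 in THP1 and -0.01 in OCIAML3, and none of these was called. MONOMAC6 was the 1 line with a positive value, 97.3, 106 and 123 CPM untreated and 140, 112 and 162 CPM after etoposide (0.34 ± 0.116, adjusted p = 0.0223). That call did not hold with DESeq2 (adjusted p = 0.0988), without etoposide library 1 (0.0543) or without etoposide library 3 (0.124).

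**Figure D3:**
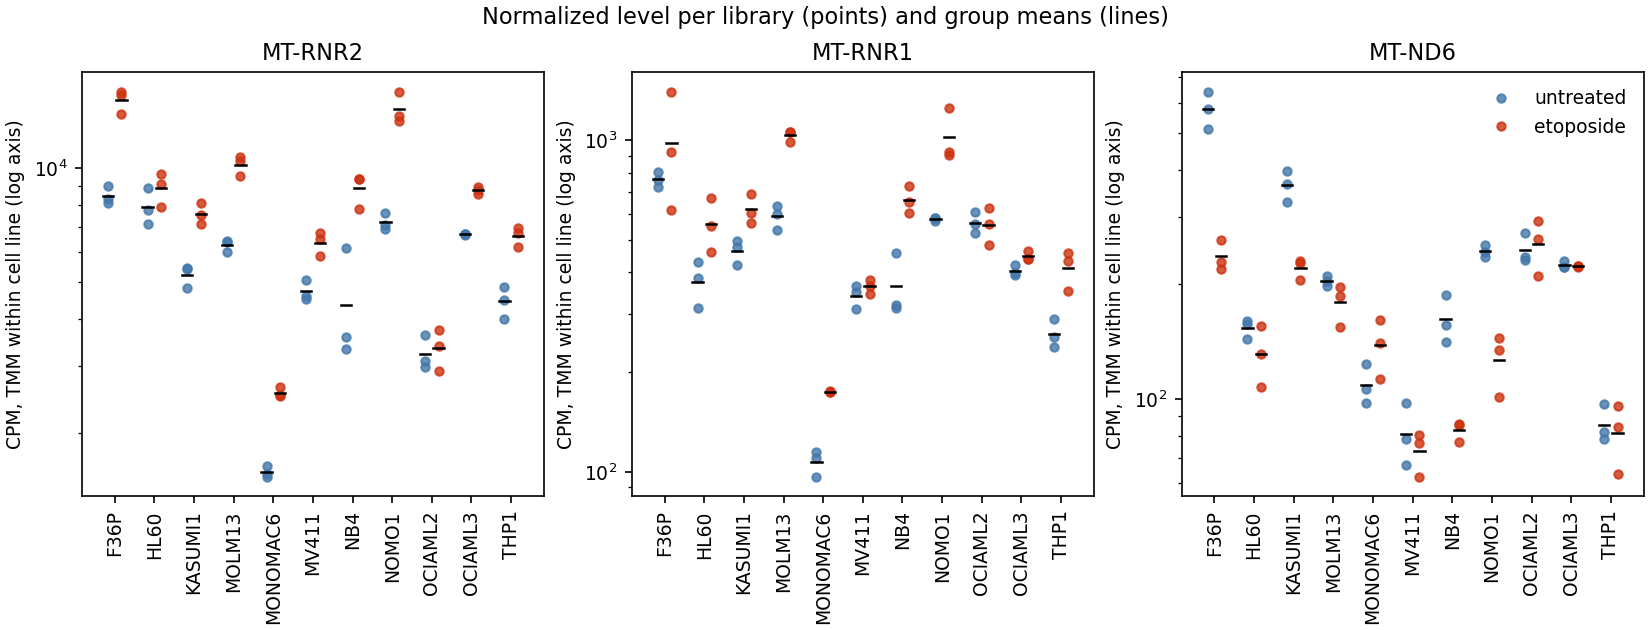
Levels of MT-RNR2, MT-RNR1 and MT-ND6 by cell line in CPM on a scale common to the libraries of a line (log axis), 1 point per library and a line at the mean of each group of 3. MT-RNR2 rises without overlap in all lines but HL60 and OCIAML2, and MT-ND6 falls without overlap in F36P, KASUMI1, NB4 and NOMO1, while the MOLM13 groups also do not overlap but MT-ND6 was not called there.

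The other 12 messenger RNAs, all of the heavy strand, went up in some lines and down in others. Over the 13 messenger RNAs and 10 lines, 43 of 130 pairs were called higher and 30 lower. With library sizes alone as the scale the counts were 51 and 13, and that scale placed the median of all genes -0.0144 to 0.246 away from the main one on the log2 scale, depending on the line. MOLM13 and MV411 each had 12 messenger RNAs higher and none lower. MONOMAC6 had 8 higher and 1 lower, and OCIAML3 8 higher and none lower. NB4 was mixed, with 3 higher and 5 lower. With the replicate number as a block MT-CO3 was also called higher there (adjusted p = 0.158 without and 0.0192 with it). NB4 was the one line where the numbers were taken to pair the libraries. NOMO1 had 10 lower, F36P and HL60 5 lower each, KASUMI1 4 lower, and none was higher in these 4 lines. These calls are on the scale estimated over all genes. As a percent of the library, messenger reads went from 5.70, 5.79 and 5.93 to 6.36, 6.43 and 6.28 in KASUMI1. In F36P they went from 5.04, 4.56 and 4.39 to 5.32, 5.65 and 4.19. They went from 5.80, 5.67 and 5.73 to 5.72, 5.37 and 5.36 in HL60. In NOMO1 they went from 4.48, 5.35 and 5.11 to 4.66, 3.80 and 4.12. THP1 had no call. The share of all genes called lower was 25% in F36P, 15% in HL60, 28.6% in KASUMI1, 28.1% in MOLM13, 30.5% in MONOMAC6, 30.4% in MV411, 28.7% in NB4, 23.9% in NOMO1, 17.7% in OCIAML3 and 16% in THP1. When a fold above 2 was required as well, 1 of the 130 messenger RNA pairs was lower, MT-ND6 in F36P, and 0 were higher, while 3.96% of all pairs of gene and cell line were lower and 11.1% higher by that rule. Among the ribosomal RNAs MT-RNR2 in NB4 was the 1 pair that met it.

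These counts rest on small changes and depend on single libraries. In OCIAML3 the count of 8 became 2 without untreated library 1, 4 without untreated library 2, 1 without untreated library 3 and 2 without etoposide library 1. MV411 had 6 in place of 12 without untreated library 2. In HL60 the 5 became 2 without etoposide library 2, and 1 without etoposide library 3, untreated library 1 or untreated library 3. NOMO1 had 5 without untreated library 2 and 6 without untreated library 3, and KASUMI1 2 without untreated library 2. In F36P 3 were lower and 1 higher without etoposide library 3, and 8 lower without untreated library 3. The NB4 counts became 1 higher without untreated library 2 or etoposide library 1, and 3 lower without untreated library 3 or etoposide library 2. The 1 lower call in MONOMAC6 was lost without any 1 of its etoposide libraries or without untreated library 3, and became 2 without untreated library 2. Without untreated library 3 MV411 had 1 lower, and without etoposide library 1 THP1 had 1 higher.

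MT-CO1, which encodes the catalytic subunit of complex IV, shows the split between lines. In MOLM13 it went from 11816, 11420 and 10595 CPM to 15863, 16617 and 17739 CPM (0.57 ± 0.0627, adjusted p = 4.08e-05). In OCIAML3 it went from 9659, 9537 and 9157 CPM to 11806, 11062 and 12267 CPM (0.31 ± 0.0623, adjusted p = 0.00474). In HL60 it fell from 12711, 12924 and 12554 CPM to 11467, 10553 and 10202 CPM (-0.25 ± 0.0738, adjusted p = 0.0211). None of these 3 pairs of groups overlapped. NB4 went from 10054, 8124 and 10948 CPM to 8202, 7230 and 7606 CPM and fell by 0.34 on the log2 scale (adjusted p = 0.0112), with overlapping groups but a lower etoposide library in each of the 3 numbered pairs. In MONOMAC6 MT-CO1 was at 7749, 7572 and 7783 CPM and then at 7354, 7382 and 7180 CPM (-0.08 ± 0.0304, adjusted p = 0.0460), and with library sizes alone its sign turned (0.040, adjusted p = 0.253).

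F36P and NB4 stood out for unequal changes among the messenger RNAs. In F36P MT-ND2 fell from 5029, 4811 and 4101 CPM to 3107, 3305 and 2516 CPM (-0.64 ± 0.130, adjusted p = 0.00170), while MT-ND4 was at 7660, 7255 and 7659 CPM and then at 9686, 10127 and 6110 CPM (0.20 ± 0.171, adjusted p = 0.339). Etoposide library 3 of F36P was the lowest of the 3 for 12 of the 13 messenger RNAs, all but MT-ND6. In NB4 MT-CYB rose from 1521, 1082 and 1429 CPM to 2218, 1942 and 2076 CPM (0.63 ± 0.111, adjusted p = 0.000176). In the same NB4 libraries MT-ND5 fell from 2202, 1869 and 2835 CPM to 1340, 1147 and 1331 CPM (-0.86 ± 0.124, adjusted p = 2.86e-05). MT-CYB and MT-ND5 lie on the same strand on either side of MT-ND6, and neither pair of groups overlapped. MT-ND5 also fell in HL60, from 4106, 3524 and 3780 CPM to 2988, 2726 and 2554 CPM (-0.46 ± 0.0872, adjusted p = 0.00134). It rose in MOLM13, from 3444, 3197 and 2702 CPM to 4077, 4370 and 4552 CPM (0.48 ± 0.0865, adjusted p = 0.000999).

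**Figure D4:**
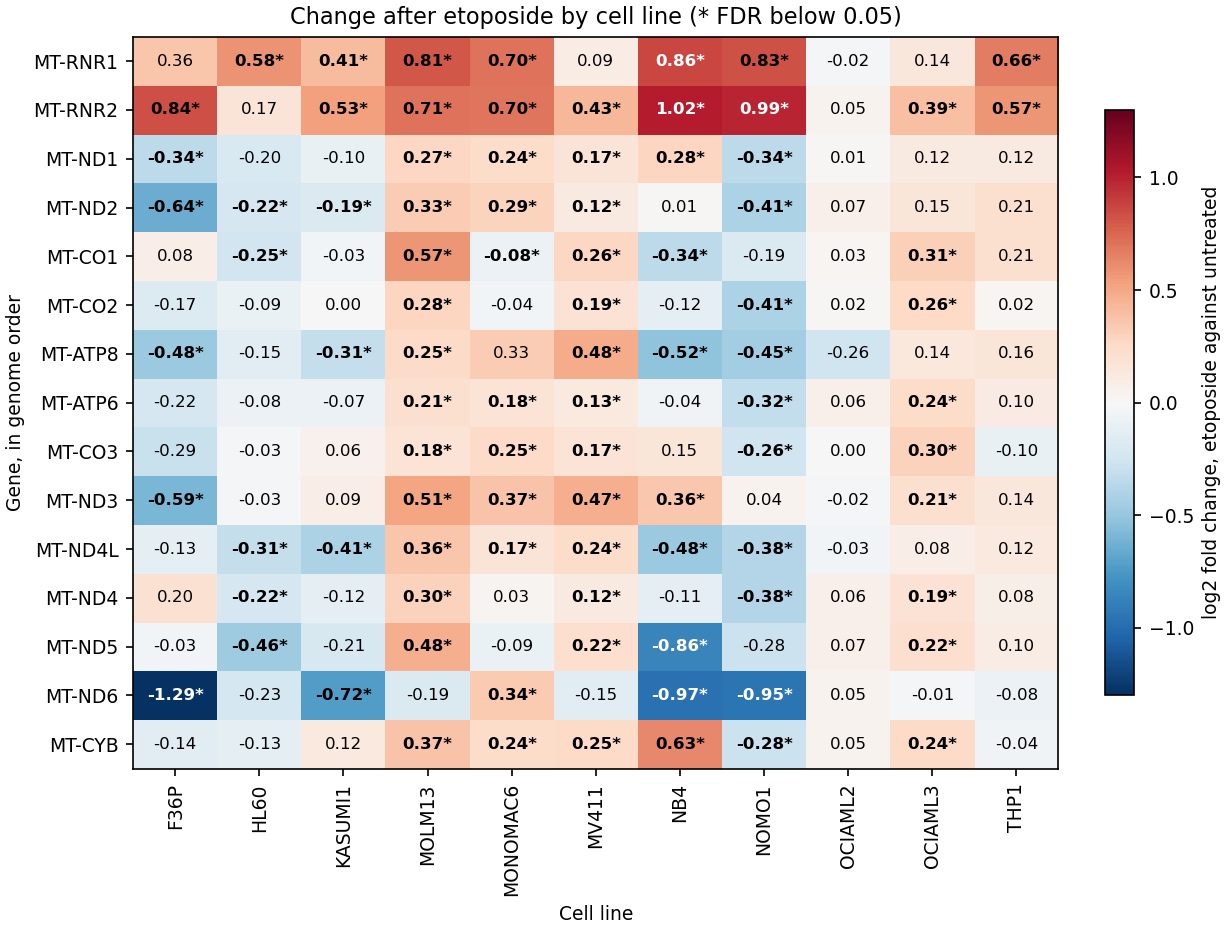
Fitted log2 fold change of etoposide against untreated for the 2 ribosomal and 13 messenger RNAs (rows, genome order) in the 11 lines (columns), with an asterisk and bold where the adjusted p was below 0.05. Both ribosomal rows are positive in the 10 lines compared, the MT-ND6 row is negative in 9 of them, and the 12 heavy-strand messenger rows change sign between lines.

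The effect of etoposide differed between the 10 lines for all 13 messenger RNAs and both ribosomal RNAs (edgeR F test on the interaction, adjusted p from 3.63e-10 for MT-CO1 to 0.00577 for MT-ATP8). Of all genes tested, 74.5% differed in the same test.

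Set against their own total, 6 of the 13 messenger RNAs were called over the 10 lines, 4 lower and 2 higher, and the relative change differed between lines for 10. In this fit the library size was the number of reads on the 13, so nuclear RNA does not enter the scale. MT-ND6 was lower by 0.45 ± 0.048 on the log2 scale (adjusted p = 4.37e-12). MT-ND5 (-0.12 ± 0.030), MT-ND4L (-0.10 ± 0.035) and MT-ND2 (-0.06 ± 0.021) were also lower, and MT-ND3 (0.13 ± 0.030) and MT-CYB (0.10 ± 0.024) were higher. These 5 relative changes took both signs across lines. MT-ND5 ran from -0.78 (NB4) to 0.12 (MOLM13), MT-ND4L from -0.40 (NB4) to 0.07 (MONOMAC6) and MT-ND2 from -0.51 (F36P) to 0.19 (MONOMAC6). MT-ND3 ran from -0.48 (F36P) to 0.43 (NB4) and MT-CYB from -0.12 (THP1) to 0.70 (NB4). Of all genes, 26.3% were called lower and 27% higher in that fit. MT-RNR2 (0.61 ± 0.039) and MT-RNR1 (0.53 ± 0.059) were higher relative to the messenger RNAs, with adjusted p of 1.0e-20 and 1.24e-11. By line the relative change of MT-RNR2 was positive throughout. That of MT-RNR1 was -0.10 in MV411 and -0.10 in OCIAML3 and positive in the rest. MT-CO1, MT-CO2, MT-CO3, MT-ATP6, MT-ATP8, MT-ND1 and MT-ND4 were not called, with values between -0.08 and 0.03.

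The relative change of MT-ND6 ran from -1.12 in F36P, -0.92 in NB4, -0.68 in KASUMI1, -0.66 in NOMO1 and -0.56 in MOLM13 through -0.34 in MV411, -0.26 in OCIAML3, -0.14 in THP1 and -0.06 in HL60 to 0.25 in MONOMAC6. It was the lowest of the 13 in 7 of 10 lines on the all-gene scale. The relative change differed between lines for 10 messenger RNAs, not for MT-CO2, MT-ATP8 and MT-ATP6, beside 75.9% of all genes, and for 8 when any 1 numbered set of libraries was left out of every group. On the all-gene scale MT-RNR2 changed more than every messenger RNA in 9 lines, with MV411 the exception, where MT-ATP8 (0.48) and MT-ND3 (0.47) exceeded it (0.43). Its distance above the median heavy-strand messenger RNA was 0.61 ± 0.40 on the log2 scale (SD over 10 lines), from 0.17 to 1.32. MT-ND6 lay below that median by a mean difference of -0.44 ± 0.38, from -1.09 in F36P to 0.13 in MONOMAC6.

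**Figure D5:**
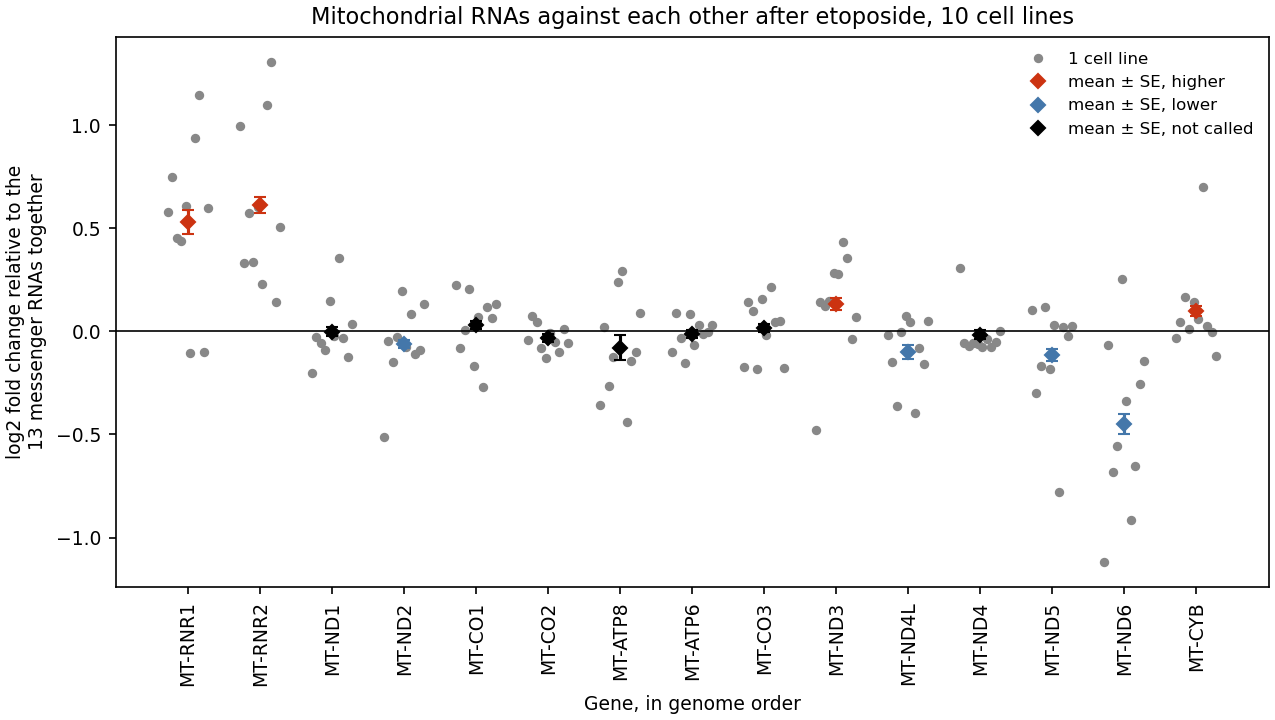
Log2 fold change after etoposide relative to the total of the 13 messenger RNAs, for the 2 ribosomal and 13 messenger RNAs in genome order, 1 grey point per cell line (10 lines) and a diamond at the fitted mean with its SE. MT-RNR1 and MT-RNR2 lie highest and MT-ND6 lowest, and the widest spread among the other messenger RNAs is in MT-ND3, MT-ND5 and MT-CYB.

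Among transfer RNAs, 6 to 11 of the 22 had enough reads to test in a line. The most calls were in MONOMAC6, with 5 of 6 tested higher beside 31.8% of all genes, and in F36P, with 4 of 11 lower beside 25% of all genes. MT-TT fell in THP1, where it had been highest, from 91.3, 153 and 111 CPM to 78.8, 72.3 and 40.3 CPM (-0.89 ± 0.208, adjusted p = 0.00330). MT-TI rose in NB4, where it had been highest, from 86.8, 90.8 and 107 CPM to 162, 138 and 138 CPM (0.63 ± 0.0997, adjusted p = 6.77e-05). The groups did not overlap in either case. MT-TW, the tryptophan transfer RNA, fell in F36P from 3.32, 1.79 and 5.56 CPM to 1.32, 0.906 and 1.78 CPM (-1.41 ± 0.396, adjusted p = 0.0109). In MONOMAC6 it rose from 0.0510, 0.149 and 0.294 CPM to 0.535, 0.604 and 0.829 CPM (1.95 ± 0.472, adjusted p = 0.00357), levels of a few reads per library. Over the 10 lines MT-TS1 (0.67 ± 0.13), MT-TD (0.50 ± 0.12) and MT-TQ (0.21 ± 0.091) were called higher of the 12 tested and none lower, beside 31.7 and 24.1% of all genes, and the first 2 had means under 1 CPM untreated.

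In OCIAML2 no mitochondrial gene was called of the 23 tested, with 1 at an unadjusted p below 0.05.

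Nuclear genes that serve these RNAs were more often called lower than higher over the 10 lines, where 24.1% of all genes were lower and 31.7% higher. Of 10 genes of mitochondrial transcription 6 were lower and 1 higher, with a median log2 fold change of -0.30. TFB2M, a transcription initiation factor, changed by -0.83 ± 0.032, POLRMT, the polymerase, by -0.58 ± 0.043 and TFAM, which packages the DNA and helps start transcription, by -0.38 ± 0.036. Of 21 genes of RNA processing and stability 20 were lower and 1 higher (median -0.34). ELAC2, which cuts the 3′ end of transfer RNAs, changed by -0.71 ± 0.026, PNPT1, a subunit of the RNA-degrading exonuclease, by -0.59 ± 0.059 and LRPPRC, which binds and stabilises the messenger RNAs, by -0.42 ± 0.057. The 78 proteins of the mitochondrial ribosome gave 60 lower and 6 higher (median -0.24), with MRPL24 (-0.82 ± 0.035) and MRPL3 (-0.76 ± 0.027) among the lower. All of these named genes had adjusted p below 0.05, the largest being 5.82e-09 for LRPPRC.

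Of the 78 nuclear subunits of complexes I to V tested, 49 were lower, 3 higher and 26 not called, with a median of -0.15. By complex the lower and higher counts were 22 and 3 of 37 for complex I, 2 and 0 of 4 for complex II, which has no mitochondrial subunit, 5 and 0 of 9 for complex III, 6 and 0 of 11 for complex IV and 14 and 0 of 17 for complex V. ATP5MC1, a subunit of the ATP synthase ring, changed by -0.59 ± 0.032, NDUFAB1 of complex I by -0.50 ± 0.032, CYC1 of complex III by -0.33 ± 0.034 and COX7B of complex IV by -0.35 ± 0.037. The mitochondrial subunits of the same complexes gave 4 higher and 1 lower of 13 on the same scale, and the difference between these groups of genes was not tested.

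Genes that maintain the mitochondrial genome were split, with 5 higher and 8 lower of 17 (median -0.02), beside the 31.7% higher and 24.1% lower of all genes. TWNK, the replicative helicase, changed by -1.17 ± 0.032 and was lower in all 10 lines. TOP1MT, the mitochondrial topoisomerase I, changed by -0.54 ± 0.034, and LIG3, a DNA ligase, by -0.62 ± 0.025. RRM2B, the ribonucleotide reductase subunit that p53 induces, rose by 0.76 ± 0.054 and was higher in 8 lines. Of 9 regulators of these genes 8 were lower, among them MYC (-1.68 ± 0.037), PPARGC1B (-0.92 ± 0.030) and PPRC1 (-0.82 ± 0.029). Whether any of these changes bears on the mitochondrial RNAs was not tested.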

How the data were processed

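Per the labels and the study's methods, the authors aligned the reads with STAR 2.5.3a to GRCh38.p7, counted them per gene on gencode 25 and checked them with FastQC 0.11.5. They compared groups with edgeR 3.20.1. The deposited values are raw counts of reads per gene, 1 file per library. Which of STAR's strand columns was kept is not given in the sources used here. Reads on more than 1 gene are not in the counts. Of 58037 identifiers, 45 duplicates on the Y chromosome, with 0 reads, were left out. Symbols and coordinates came from gencode 44, which holds 56948 of the 57992 identifiers analysed. Depth was 17997404 to 24101670 reads on genes (median 20241014). No pair of replicate libraries agreed within sampling noise (lowest chi-square per degree of freedom 2.05).

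Genes were tested with the quasi-likelihood test of edgeR 4.0.16 in R 4.3.3, with low counts removed by filterByExpr (minimum count 10, minimum total 15), TMM factors and Benjamini-Hochberg adjustment over all genes tested, and were called at an adjusted p under 0.05. Fits were made per cell line (6 libraries), over 10 lines (60 libraries, with a test of the difference between lines), over the same libraries with the reads on the 13 messenger RNAs as library size, and between the 33 untreated libraries. The scripts were tested on simulated data. The mitochondrial genes and the lists of nuclear genes were chosen with earlier results of these data known. All 37 genes were accounted for, and transfer RNAs were described singly from a mean of 1 CPM or, for MT-TS1 and MT-TD, as called. The limit given for 0 reads covers counting error only. SDs are between libraries or, where stated, between lines, and SEs include the spread between libraries.

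Alternatives were RLE scaling, library size alone, a scale from nuclear genes only, no filter, a minimum mean of 5 CPM, DESeq2 1.42.0, a fold above 2, a replicate block, scales from 11 or 12 messenger RNAs, OCIAML2 included, and each library left out or, in fits over several lines, each numbered set of libraries. Replicate numbers were taken to pair the libraries of a line where the deviations from the group means correlated above 0.1 for every number. The labels give numbers only and state no pairing. This cutoff was met in NB4 alone, with 0.265, 0.220 and 0.152 for numbers 1, 2 and 3. In the other 10 lines the lowest correlation was between -0.327 and 0.0892.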

Additional observations from a re-analysis of the deposited data

Results flagged for a closer look

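The change after etoposide differed between the 10 cell lines for all 13 messenger RNAs and both ribosomal RNAs, by the edgeR F test on the interaction of line and treatment, with p adjusted over 19974 genes. Since 74.5% of all genes tested differed in that test, the count sets nothing apart. For the ribosomal RNAs the adjusted p was 0.00409 for MT-RNR1, which was higher by 0.09 (MV411) to 0.86 (NB4) on the log2 scale, and 3.61e-05 for MT-RNR2, higher by 0.17 (HL60) to 1.02 (NB4). For complex I it was 6.42e-07 for MT-ND1, 1.15e-08 for MT-ND2, 3.98e-06 for MT-ND3, 0.000250 for MT-ND4L, 0.00133 for MT-ND4, 2.05e-09 for MT-ND5 and 3.84e-10 for MT-ND6. MT-CYB of complex III had 6.83e-06. For complex IV it was 3.63e-10 for MT-CO1, 2.81e-06 for MT-CO2 and 7.29e-05 for MT-CO3, and for the ATP synthase 0.000837 for MT-ATP6 and 0.00577 for MT-ATP8. MT-CO1 ran from -0.34 in NB4 to 0.57 in MOLM13, MT-ND5 from -0.86 in NB4 to 0.48 in MOLM13, and MT-ND6 from -1.29 in F36P to 0.34 in MONOMAC6. The dose differed between the lines, so line and dose cannot be told apart.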

How the results depend on the processing

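Of 3318 values of single genes recomputed under the alternatives, 2996 kept their direction and side of the threshold, 232 lost their call, 88 gained one and 2 changed direction with a call on at least 1 side. Those 2 came with library sizes alone, MT-CO1 in MONOMAC6 (0.040, adjusted p = 0.253) and MT-ND2 over 10 lines (0.074, adjusted p = 0.0315). On that scale 13 messenger pairs were lower in place of 30, and 9 messenger RNAs were higher over 10 lines in place of 4. A fold above 2 left 0 messenger pairs higher, 1 lower (MT-ND6 in F36P) and 1 ribosomal pair higher (MT-RNR2 in NB4). With no filter, 1 gene was called in OCIAML2 (MT-ATP8) and 2 messenger RNAs were lower over 10 lines, MT-ND5 joining MT-ND6. The mean mitochondrial share was 4.52% untreated and 4.95% with etoposide over messenger RNAs only, and 4.62 and 5.09% among reads on protein-coding genes. The cause of these differences was not tested.

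With 1 library left out, 36 to 44 messenger pairs were higher, 25 to 33 lower, 16 to 17 ribosomal pairs higher and 0 lower, with 0 calls in OCIAML2. With 1 numbered set left out of every group, 3 to 4 messenger RNAs were higher over 10 lines, 1 lower and 11 to 13 differed between lines, with 2 ribosomal RNAs higher. Against their own total, 2 were higher, 2 to 3 lower, 8 differed in each case in place of 10, and 2 ribosomal RNAs were higher. The share was 5.10 to 5.14% untreated and 5.87 to 5.99% with etoposide, a difference of 0.767 to 0.889 points, and 15 genes differed between untreated lines each time.

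In NB4, where the numbers were taken to pair the libraries, the replicate block added calls for MT-CO3 (0.15, adjusted p from 0.158 to 0.0192), MT-TT (0.0511 to 0.0139) and MT-TP (0.104 to 0.0435). Elsewhere the numbers were not taken as pairs. With a block in every fit 38 messenger pairs were higher, 29 lower and 16 ribosomal pairs higher. Over 10 lines 4 messenger RNAs were then higher and 1 lower, and 4 were lower and 11 differed against their own total. DESeq2 called 34, 28 and 16 pairs. Of the 22 transfer RNAs, 12 had enough reads to test over 10 lines, and 6 to 11 in a single line.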

Other observations

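The ratio of MT-RNR2 to MT-RNR1 reads ran from 3.5 ± 0.132 in untreated OCIAML2 (SD, n = 3, per base) to 13 ± 0.853 in HL60, with the other lines between 6.51 and 10.5. After etoposide its mean was higher in 6 of 10 lines. The ratio of MT-ND6 to MT-ND5 per base was 1.23 ± 0.300 in untreated F36P, the one line above 1, and 0.507 ± 0.0848 after etoposide. It was lowest in MV411, at 0.109 ± 0.0145 and 0.0853 ± 0.0141.

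Across lines MT-ND6 varied with the summed transfer RNAs of its strand, with Pearson's r of 0.940 and Spearman's rho of 0.909 over 11 untreated lines and 0.873 and 0.939 over 10 etoposide-treated ones. Pairs of the 12 heavy-strand messenger RNAs had a median rho of 0.491 in untreated and 0.394 in etoposide-treated lines, and of 0.673 for their log2 fold changes. MT-ND6 with those 12 had a median rho close to these levels, 0.418 untreated and 0.364 with etoposide. The 2 ribosomal RNAs had r of 0.779 and rho of 0.618 untreated. Each point is the mean of 3 libraries and its genes share those libraries and their scale, so these are descriptions. F36P was highest for MT-ND6 and for transfer RNAs of both strands, MT-TQ (6.98 CPM), MT-TE (2.81 CPM) and MT-TP (4.76 CPM) of the light strand and MT-TM (2.65 CPM) and MT-TD (2.35 CPM) of the heavy strand, as well as for both ribosomal RNAs, MT-ND1 and MT-ND2.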
